A study of Xenopus laevis with 36 samples.

Results

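The suppressor of cytokine signaling (SOCS) family was examined in regenerating skin wounds of *Xenopus laevis*. The members are every row of the count table whose gene name, leaving case and the final .L or .S aside, is *cish* or one of *socs1* to *socs7*. There are 16 such rows among 42257 rows with a gene name, and all 16 passed the filter on low counts that 28225 rows passed. *X. laevis* is an allotetraploid frog, so most genes stand as an L and an S copy from its 2 subgenomes, and each copy was kept as a row of its own. Wild-type juvenile frogs, shortly past metamorphosis, received a punch wound of the dorsal skin and, at 3 days post wounding (dpw), a subcutaneous injection. The injection held recombinant CSF1 (rCSF1), recombinant IL34 (rIL34) or a control preparation (rctrl) made from insect cells carrying the empty expression vector. Tissue was collected 7 or 14 dpw, and each of the 6 treatment and time groups has 6 libraries. All frogs were wounded and injected, so no group shows unwounded or uninjected skin. The comparisons ask how the 2 ligands of the macrophage receptor CSF1R change wound repair.

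SOCS proteins are feedback inhibitors of cytokine receptors. In mammals, a cytokine that binds a receptor coupled to Janus kinases (JAKs) leads to phosphorylation of STAT transcription factors, and STATs switch on genes that include *cish*, *socs1*, *socs2* and *socs3*. The proteins made then bind the receptor or the kinase through an SH2 domain and recruit, through a C-terminal SOCS box, elongins B and C and cullin 5, which form a ubiquitin ligase. SOCS1 and SOCS3 also block JAK activity directly. SOCS4 to SOCS7 carry the same domains but are less closely tied to STAT induction and act in part on receptor tyrosine kinases. CSF1R, the receptor of both injected cytokines, is itself a receptor tyrosine kinase. In skin wounds, SOCS genes are read as a trace of recent cytokine signaling.

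Levels are given as CPM, counts scaled to a common library total, after adjustment by the trimmed mean of M values (TMM). They are not divided by transcript length, so they compare groups within a row and not rows with each other. Differences are log2 fold changes from edgeR's quasi-likelihood test, and a row was called at an adjusted p under 0.05 over all 28225 rows tested. Their standard errors were derived from the test's F statistic, as the absolute log2 fold change over the square root of F. The 36 libraries held 22435798 to 34868292 counted read pairs (median 29370148). Each sample is titled as a replicate and was taken to come from a separate frog. The main edgeR fit estimated the spread between samples, for each row, from all 36 libraries together. Its p-values and standard errors therefore do not measure the spread within the compared groups alone. Fits to only the groups compared are given below where they changed a call. In whole wounds, fewer cells of a type and less RNA per cell cannot be told apart. Skin was visible in all libraries, with summed epidermal marker levels of 3448 to 16410 CPM over 23 rows.

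In 2 places libraries stood apart. Among rCSF1-administered wounds at 7 dpw, replicates 2 and 5 lay far from the other 4 on the second principal component (−73.8 and −62.2 against −16.8 to 24.4), and were each other's closest library. Their summed fibroblast marker levels were 1932 and 2376 CPM against 9507 to 14750 in the other 4. Among rCSF1-administered wounds at 14 dpw, summed skeletal muscle marker levels reached 77.4 to 25910 CPM (rctrl at 14 dpw, 8.28 to 60.9), and 14 of 14 tested muscle rows were called higher. Calls of members that rest on rCSF1 at 7 dpw are therefore given with and without replicates 2 and 5.

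By RefSeq annotation of Xenopus_laevis_v10.1, the assembly the counts were made on, 14 of the 16 row names matched a protein-coding gene. *cish.L* lies at chr4L:126595060-126600006 and *cish.S* at chr4S:106628621-106633074. *socs1.L* lies at chr9_10L:99437587-99441690 and *socs1.S* at chr9_10S:86504518-86508535. *socs2.L* covers chr3L:63166164-63204783, and *socs3.S* covers chr9_10S:17964961-17967579. The later members are *socs4.L* (chr8L:86422960-86431584), *socs4.S* (chr8S:13339051-13344435), *socs5.L* (chr5L:6586226-6611884), *socs5.S* (chr5S:22051546-22069708), *socs6.L* (chr6L:107259929-107268862), *socs6.S* (chr6S:87484297-87498164), *socs7.L* (chr9_10L:2781947-2796554) and *socs7.S* (chr9_10S:2538122-2549431). The rows SOCS2 and SOCS3 are written in capitals and match no current symbol. RefSeq gives *socs2* as a synonym of *socs2.S* and *socs3* as a synonym of both *socs3.L* and *socs3.S*. *socs3.S* has a row of its own and *socs3.L* has none under that name, but the match was not settled, so both rows keep the names the table gives them. Copies of a gene can share reads, and no strand option is stated for the counting, so reads of an overlapping antisense transcript cannot be told apart.

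**Figure D1:**
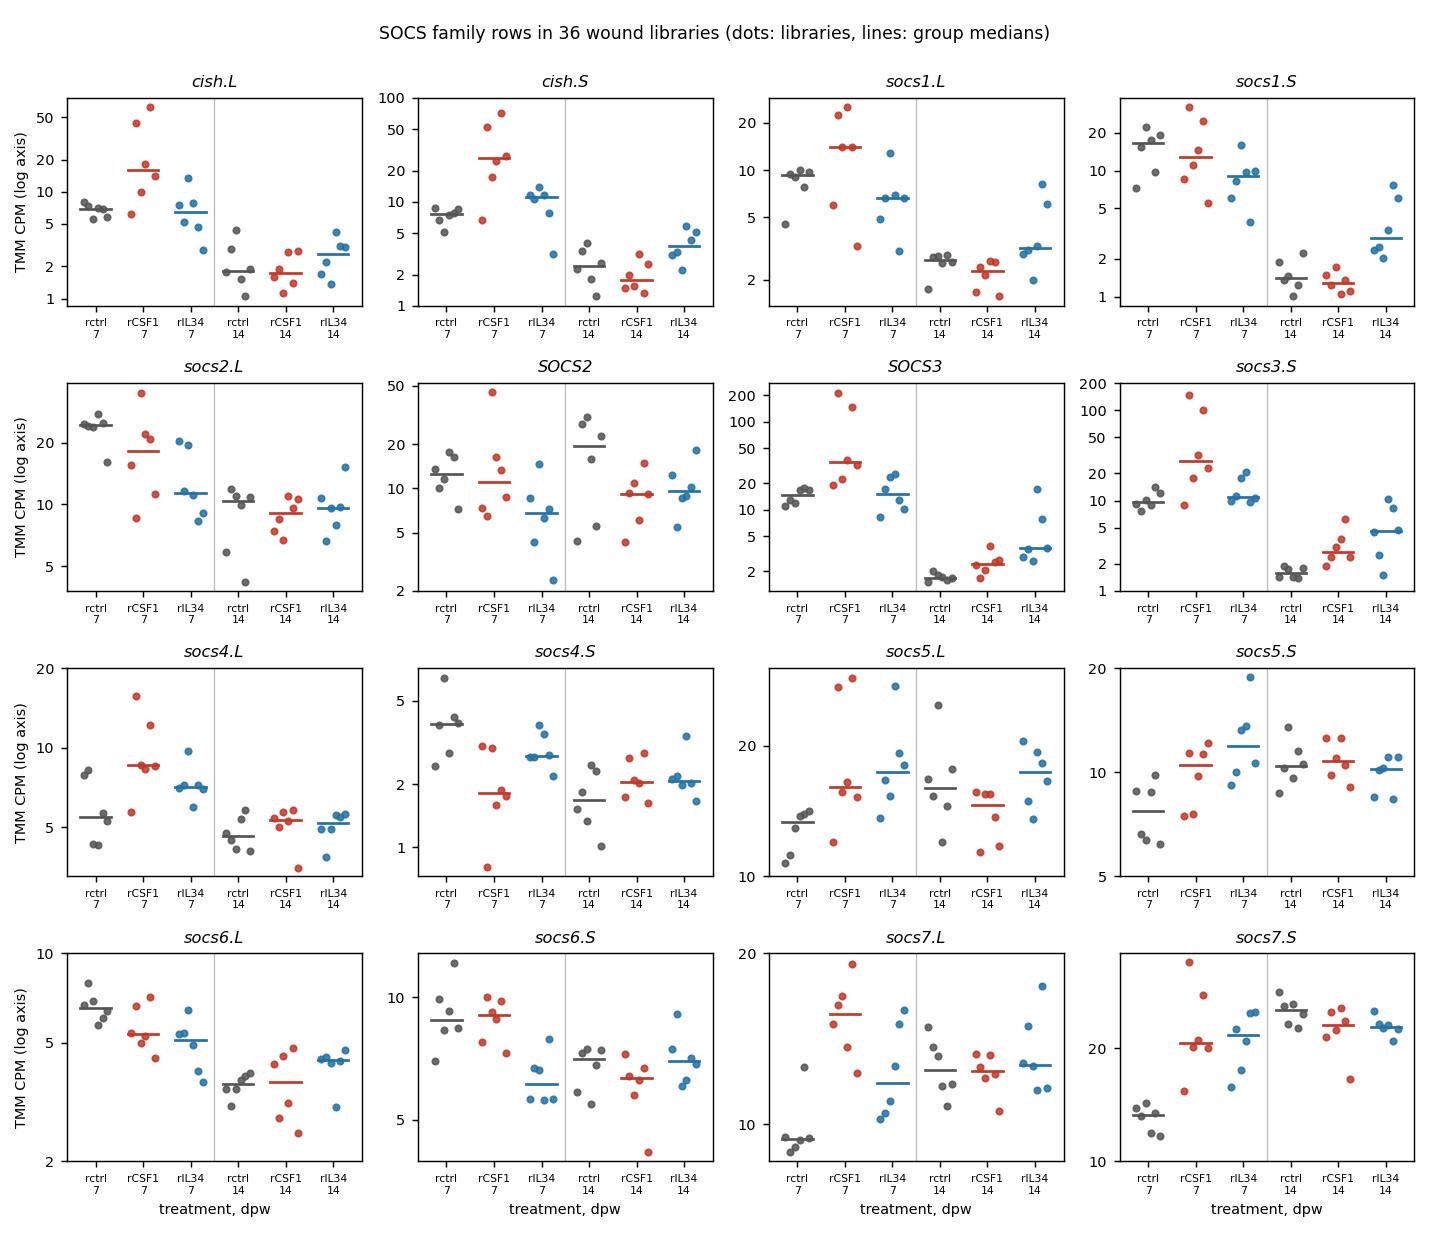
TMM CPM (log axis) of each of the 16 SOCS family rows in the 36 libraries, by treatment and dpw; points are libraries and lines are group medians. SOCS3, *socs3.S*, *cish.L* and *cish.S* reach their highest values in 2 of the 6 rCSF1 libraries at 7 dpw, and these rows and both *socs1* rows are lower at 14 dpw.

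At 7 dpw, rCSF1-administered wounds differed from rctrl wounds in 9 of the 16 members, 8 higher and 1 lower. The higher rows were SOCS3, *socs3.S*, *cish.L*, *cish.S*, *socs4.L*, *socs5.L*, *socs7.L* and *socs7.S*, and *socs4.S* was lower. Over all rows tested, 20.4% were called higher and 14.1% lower in this comparison. The members' median log2 fold change was 0.63, beside −0.027 for all rows. By group, *cish* and *socs1* to *socs3* had 4 of 8 rows higher with a median of 1.33, and *socs4* to *socs7* had 4 of 8 higher and 1 lower with a median of 0.47. The share of counts from ribosomal RNA also separated the groups at 7 dpw, with 1.14% to 1.58% in rctrl, 1.79% to 5.63% after rCSF1 and 1.75% to 3.03% after rIL34, and its part in the SOCS values was not tested.

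SOCS3 encodes the inhibitor that binds the shared IL6-family receptor gp130 and the G-CSF receptor. The SOCS3 row stood at 10.95 CPM in the lowest, 14.7 in the median and 17.8 in the highest rctrl library at 7 dpw. In rCSF1-administered wounds it stood at 19.3, 34.8 and 214 CPM, and the groups did not overlap. Replicates 2 and 5 carried 214 and 148 CPM, while the other 4 libraries lay between 19.3 and 37.05. The fitted difference was 2.45 ± 0.48 on the log2 scale (SE, n = 6 against 6, 5.45-fold, edgeR adjusted p = 0.00025), and an exact two-sided permutation test gave p = 0.0022, the smallest that 6 against 6 allows. *socs3.S* moved with it. It ranged from 7.63 through 9.75 to 14.1 CPM in rctrl and from 9.05 through 27.5 to 147 CPM in rCSF1 wounds, where replicates 2 and 5 held 147 and 101 CPM. The groups overlapped, and the difference was 2.41 ± 0.47 (5.31-fold, adjusted p = 0.00024). Without replicates 2 and 5 the differences were 0.91 for SOCS3 (adjusted p = 0.095) and 0.95 for *socs3.S* (adjusted p = 0.085), and neither was called. Without replicate 2 alone they were 1.80 and 1.78, both still called. The 4 remaining SOCS3 libraries all stayed above the highest rctrl library.

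*cish* encodes CIS, the first described member of the family, which in mammals is induced by STAT5 and binds receptors of the erythropoietin and IL2 type. Both copies were higher in rCSF1-administered wounds. *cish.S* ranged from 5.13 through 7.66 to 8.64 CPM in rctrl and from 6.64 through 26.2 to 72.1 CPM in rCSF1 wounds, a difference of 2.18 ± 0.38 (4.53-fold, adjusted p = 8.4e-05). *cish.L* ranged from 5.57 through 6.95 to 8.05 CPM in rctrl and from 6.12 through 16.1 to 61.5 CPM in rCSF1 wounds, a difference of 1.92 ± 0.42 (3.79-fold, adjusted p = 0.00077). Only the lowest rCSF1 library fell within the rctrl range for either copy. Replicate 5 was the highest for both copies and replicate 2 the next. Without these 2 libraries *cish.S* was still called at 1.34 (adjusted p = 0.011), and *cish.L* stood at 0.80 (adjusted p = 0.15).

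SOCS1, the main brake on interferon signaling in mammals, and SOCS2, which in mice limits growth hormone signaling, were not called after rCSF1 at 7 dpw. *socs1.L* averaged 8.43 ± 2.06 CPM in rctrl (SD, n = 6, median 9.26) and ranged from 3.30 through 14.0 to 25.1 CPM in rCSF1 wounds (log2 difference 0.75 ± 0.36, adjusted p = 0.10). It passed the test without rCSF1 replicate 1 (adjusted p = 0.049) or replicate 6 (adjusted p = 0.024). *socs1.S* ranged from 7.24 through 16.4 to 22.0 CPM in rctrl and from 5.55 through 12.9 to 31.7 CPM in rCSF1 wounds, with a log2 difference of 0.087 ± 0.36. Values for *socs2.L* were 16.1, 24.3 and 27.7 CPM in rctrl (lowest, median, highest) and 8.61, 18.3 and 35.1 CPM after rCSF1. The SOCS2 row held 7.19, 12.5 and 17.7 CPM in rctrl and 6.52, 11.1 and 44.9 CPM after rCSF1. For these 3 rows the adjusted p was 0.39 or more, and the groups overlapped.

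Among the later members, *socs7.S* and *socs7.L* were higher after rCSF1. SOCS7 binds adaptor proteins of tyrosine kinase signaling. *socs7.S* ranged from 11.7 through 13.3 to 14.3 CPM in rctrl and from 15.4 through 20.6 to 33.9 CPM in rCSF1 wounds, with no overlap (log2 difference 0.82 ± 0.14, adjusted p = 5.4e-05). *socs7.L* ranged from 8.94 through 9.41 to 12.6 CPM in rctrl and from 12.3 through 15.6 to 19.2 CPM in rCSF1 wounds (0.66 ± 0.13, adjusted p = 0.00023). Only 1 rctrl library, replicate 5, lay inside the rCSF1 range. Both rows kept their calls without replicates 2 and 5, each at 0.53 (adjusted p = 0.012 for *socs7.L* and 0.0043 for *socs7.S*). The rctrl group at 7 dpw had the lowest *socs7.S* mean (13.05 CPM), and the other groups had means of 21.07 to 25.13 CPM. These rctrl libraries enter both cytokine comparisons with rctrl at 7 dpw, the rctrl change to 14 dpw and both interactions. No comparison without them called *socs7.S*.

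The 2 copies of *socs4* went in opposite directions. SOCS4, like SOCS5, is linked to turnover of the epidermal growth factor receptor. *socs4.L* ranged from 4.30 through 5.46 to 8.27 CPM in rctrl and from 5.72 through 8.58 to 15.7 CPM after rCSF1 (log2 difference 0.73 ± 0.19, adjusted p = 0.0036). *socs4.S* ranged from 2.45 through 3.89 to 6.45 CPM in rctrl and from 0.810 through 1.82 to 3.04 CPM after rCSF1 (−0.97 ± 0.26, adjusted p = 0.0048). In both rows the groups overlapped. Replicate 2 was the highest rCSF1 library for *socs4.L* and the lowest for *socs4.S*. Without replicates 2 and 5 the values were 0.36 (adjusted p = 0.18) and −0.78 (adjusted p = 0.056). When the L and S counts were added before the fit, *socs4* stood at 0.23 (adjusted p = 0.24). With only the groups compared in the fit, neither copy was called (adjusted p = 0.062 for *socs4.L* and 0.054 for *socs4.S*), nor was *socs5.L* (0.066), which left 6 members called.

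*socs5.L* ranged from 10.7 through 13.3 to 14.1 CPM in rctrl and from 11.97 through 16.1 to 28.7 CPM after rCSF1 (log2 difference 0.59 ± 0.19, adjusted p = 0.014). Replicates 2 and 5 held 27.4 and 28.7 CPM and the other 4 at most 16.5. The call was lost without replicate 2 (adjusted p = 0.091), without replicate 5 (adjusted p = 0.075) and without both (0.19, adjusted p = 0.53). *socs5.S* was not called at 0.35 ± 0.16 (adjusted p = 0.087) and passed without replicate 3 (adjusted p = 0.046). *socs6.L* and *socs6.S*, copies of the gene whose product binds the KIT receptor, stood at −0.23 and −0.055 (adjusted p = 0.27 and 0.79). Without replicates 2 and 5, 3 members remained called, all higher: *cish.S*, *socs7.L* and *socs7.S*. Over all rows, 7.18% were then called higher and 5.67% lower.

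**Figure D2:**
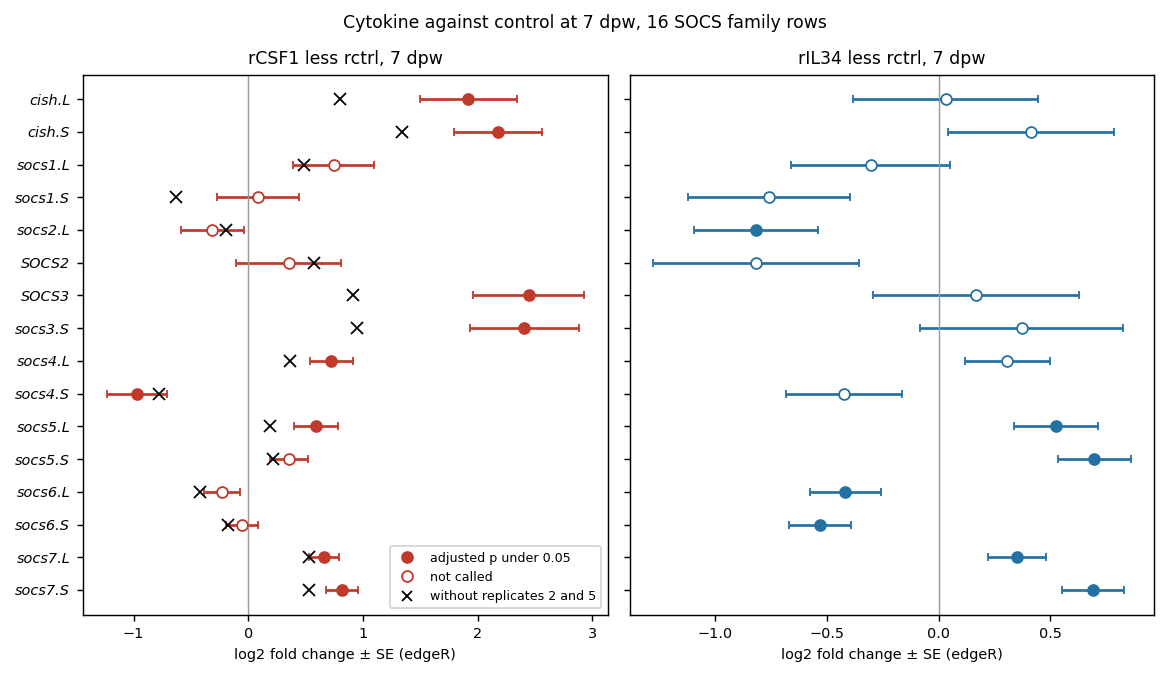
Log2 fold change ± SE (edgeR, n = 6 against 6) of the 16 rows against rctrl at 7 dpw, for rCSF1 (left) and rIL34 (right); filled points have an adjusted p under 0.05, and crosses give the rCSF1 value without replicates 2 and 5. SOCS3 falls from 2.45 to 0.91 without these 2 libraries, while *socs7.L* goes from 0.66 to 0.53.

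Marker levels of several cell types moved with replicates 2 and 5, and their part in the SOCS values was not tested. Over 9 neutrophil marker rows, replicate 2 summed to 10670 CPM and replicate 5 to 7166 CPM, where the 4 remaining libraries of the group lay between 553 and 1762 CPM and rctrl between 507 and 837 CPM. No row of that list was at 0 in any library. *mmp8.L* and *mmp8.S* made up 98.4% and 96.8% of the sum in replicates 2 and 5. The defining granule gene *mpo* went the other way, with 80.2 and 133 CPM over both copies in replicates 2 and 5 against 310 to 907 CPM elsewhere in the group and 173 to 672 CPM in rctrl. *cebpe*, a granulocyte transcription factor, also had its lowest rCSF1 levels there, with 1.32 and 3.87 CPM over both copies against 13.6 to 33.5 CPM. *csf3r.L*, which encodes the G-CSF receptor, did not go down with them. Replicates 2 and 5 held 86.7 and 88.1 CPM of it, inside the range of the other 4 and above every rctrl library (26.5 to 59.99 CPM). *cxcr1.S* was not lower there either, and *cxcr1.L* lay below the other 4 in replicate 2 only. Without *mmp8*, the neutrophil sum ran from 213 to 766 CPM in rctrl. It was 172 and 231 CPM in replicates 2 and 5, below the 394 to 1074 CPM of the other 4. Macrophage markers summed to 156 and 257 CPM there against 350 to 777 CPM in the other 4. Red blood cell markers summed to 73.0 and 95.55 CPM against 495 to 1624 CPM. T and NK cell markers summed to 42.6 and 37.1 CPM against 52.2 to 148 CPM. B and plasma cell markers stood at 6.565 and 5.13 CPM against 11.8 to 58.3 CPM. Endothelial markers summed to 310 and 295 CPM against 63.2 to 155 CPM. The endothelial row *cdh5.L* reached 284 CPM in its highest library, against a median of 11.6 over all 36, so 1 row can carry most of such a sum. Of the 9 endothelial rows, 1 was called higher and 1 lower for rCSF1 against rctrl, with a median of −0.58. Epidermal markers summed to 16410 and 12460 CPM against 5885 to 10870 CPM. Of the 23 epidermal rows, 18 were called higher and 0 lower for rCSF1 against rctrl, with a median of 1.315.

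**Figure D3:**
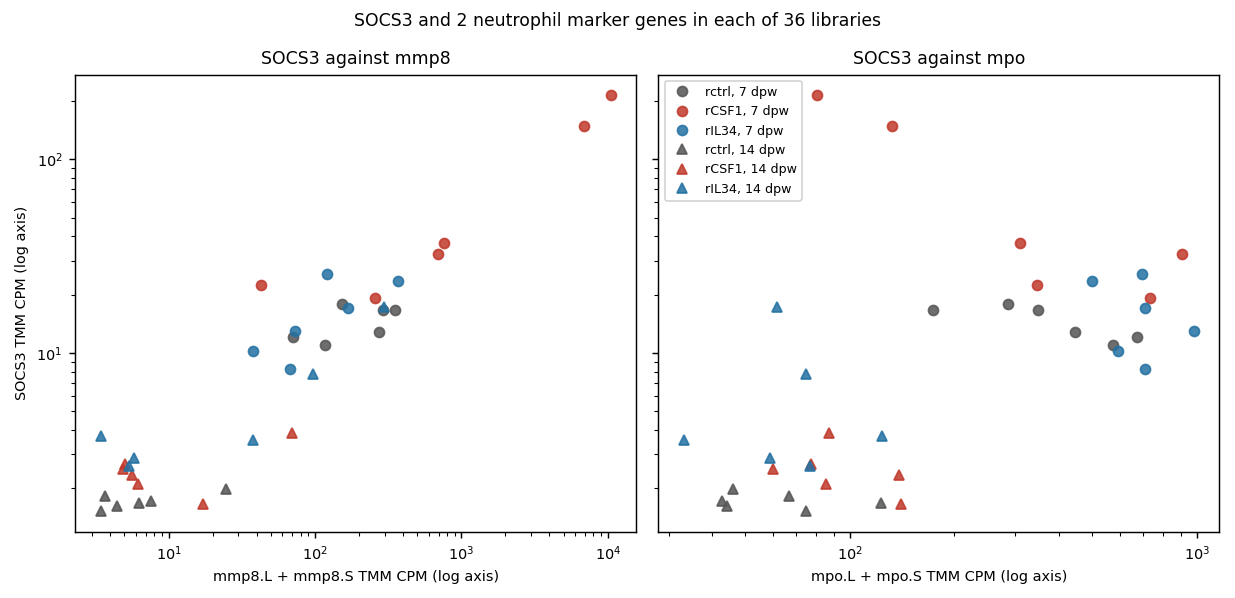
SOCS3 TMM CPM against the summed CPM of *mmp8.L* and *mmp8.S* (left) and of *mpo.L* and *mpo.S* (right) in each of the 36 libraries, on log axes; circles are 7 dpw and triangles 14 dpw. The 2 rCSF1 libraries with SOCS3 at 214 and 148 CPM have the highest *mmp8* sums and, among 7 dpw libraries, the lowest *mpo* sums.

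After rIL34 at 7 dpw, none of *cish*, *socs1* and *socs3* was called, and the changes lay mostly in *socs5*, *socs6* and *socs7*. Of the 16 members, 4 were higher and 3 lower than in rctrl, beside 15.8% higher and 11.2% lower among all rows. The members' median was 0.10, and that of all rows −0.01. The comparison shares its 6 rctrl libraries with the one for rCSF1. *socs7.S* ranged from 15.7 through 21.7 to 24.96 CPM in rIL34-administered wounds, above every rctrl library (log2 difference 0.69 ± 0.14, adjusted p = 0.00037). *socs5.S* ranged from 6.19 through 7.70 to 9.83 CPM in rctrl and from 9.15 through 11.9 to 18.9 CPM after rIL34 (0.70 ± 0.16, adjusted p = 0.0017). The 2 groups overlapped only at the edge.

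*socs6.S* was lower after rIL34, with 6.96, 8.81 and 12.2 CPM in rctrl (lowest, median, highest) and 5.59, 6.12 and 7.91 CPM in rIL34 wounds (−0.53 ± 0.14, adjusted p = 0.0049). The calls for *socs7.S*, *socs5.S* and *socs6.S* stood with any single library left out. The other 4 were closer to the threshold. They were *socs5.L* (0.53 ± 0.19, adjusted p = 0.035), *socs7.L* (0.35 ± 0.13, adjusted p = 0.041), *socs6.L* (−0.42 ± 0.16, adjusted p = 0.049) and *socs2.L* (−0.82 ± 0.28, adjusted p = 0.027). *socs2.L* held 8.26, 11.4 and 20.4 CPM after rIL34 against 16.1, 24.3 and 27.7 CPM in rctrl. Its call was lost without rctrl replicate 4 or rIL34 replicate 2, 4, 5 or 6 (adjusted p up to 0.069). That of *socs5.L* was lost without rctrl replicate 1, 2, 3 or 5 or rIL34 replicate 4, 5 or 6 (up to 0.15). That of *socs6.L* was lost without rctrl replicate 1, 2, 3 or 6 or rIL34 replicate 2, 4, 5 or 6 (up to 0.13), and that of *socs7.L* without rctrl replicate 1, 2, 3, 4 or 6 or rIL34 replicate 4, 5 or 6 (up to 0.13). By DESeq2 *socs7.L* was not called (adjusted p = 0.055), nor by limma-voom (0.082). edgeR lost it with RLE size factors, no filter, a 5 CPM filter, only the groups compared or that time's 18 libraries (0.069 to 0.12). edgeR lost *socs5.L* with RLE size factors, no filter, a 5 CPM filter, the replicate block or those 18 libraries (0.050 to 0.094). *socs6.L* was not called with only the groups compared (0.069) or those 18 libraries (0.087), nor *socs2.L* with the latter (0.067).

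SOCS3 ranged from 8.28 to 25.5 CPM after rIL34, a range that holds the whole rctrl range (log2 difference 0.17 ± 0.46, adjusted p = 0.82). *socs3.S* ranged from 9.71 through 11.1 to 21.0 CPM (0.37 ± 0.45). *cish.L* ranged from 2.86 through 6.41 to 13.5 CPM (0.032 ± 0.41), and *cish.S* from 3.15 through 11.1 to 14.1 CPM (0.41 ± 0.37). *socs1.S* ranged from 3.91 through 9.03 to 15.9 CPM (−0.76 ± 0.36, adjusted p = 0.12) and passed without rIL34 replicate 3 (adjusted p = 0.046). The epidermal marker list moved with these groups. Its summed level was 3448 to 8533 CPM in rctrl and 9605 to 14470 CPM after rIL34, and 22 of 23 rows were called higher. The list also moved after rCSF1, with a sum of 5885 to 16410 CPM and 18 of 23 rows called higher than in rctrl. T and NK cell markers summed to 75.1 to 202 CPM in rctrl and 39.0 to 119 CPM after rIL34, with 5 of 15 tested rows called lower. Their part in the SOCS values was not tested.

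The cytokines were also compared with each other at 7 dpw. Of the members, 6 were higher after rCSF1 than after rIL34 and 0 were lower, beside 9.35% higher and 8.05% lower among all rows, and the median was 0.49 (all rows, 0.01). SOCS3 differed by 2.28 ± 0.48 (adjusted p = 0.0019), *socs3.S* by 2.04 ± 0.47 (adjusted p = 0.0036), *cish.L* by 1.89 ± 0.42 (adjusted p = 0.0031) and *cish.S* by 1.77 ± 0.38 (adjusted p = 0.0022). *socs1.L* (1.05 ± 0.36, adjusted p = 0.039) and *socs6.S* (0.47 ± 0.14, adjusted p = 0.018) were also higher after rCSF1. In SOCS3, *socs3.S* and both *cish* rows the ranges of the 2 groups overlapped. Without rCSF1 replicates 2 and 5, 0 members were called by edgeR (8 at an unadjusted p under 0.05), beside 2.88% higher and 3.33% lower among all rows, and SOCS3 stood at 0.79 (adjusted p = 0.20) and *cish.S* at 0.97 (adjusted p = 0.089). With only the groups compared in the edgeR fit, 0 members were called (7 at an unadjusted p under 0.05), and for these 6 rows the adjusted p lay between 0.11 and 0.22. The call for *socs1.L* was also lost without rCSF1 replicate 2, 4 or 5 or rIL34 replicate 1, 2, 4, 5 or 6 (adjusted p up to 0.12). Without replicate 2 alone, SOCS3 stood at 1.68 and *socs3.S* at 1.45, both called. Rows gained singly were *socs1.S* (1.02 without rCSF1 replicate 6 and 1.09 without rIL34 replicate 3), SOCS2 (1.32 without rCSF1 replicate 1 and 1.49 without rIL34 replicate 3), *socs4.L* (0.54 without rCSF1 replicate 1) and *socs7.L* (0.37 to 0.39 without rCSF1 replicate 6 or rIL34 replicate 5 or 6).

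At 14 dpw, 0 members were called after rCSF1 against rctrl, beside 0.857% higher and 0.0957% lower among all rows. At an unadjusted edgeR p under 0.05 there were 2, *socs3.S* (1.02 ± 0.48, adjusted p = 0.43) and SOCS2 (−0.96 ± 0.46, adjusted p = 0.44), and DESeq2 and limma-voom called 0. By the exact two-sided permutation test *socs3.S* gave p = 0.0043 and SOCS3 p = 0.013, while SOCS2 gave p = 0.21. The members' median was −0.09 (all rows, 0.01). *socs3.S* stood at 1.39, 1.60 and 1.90 CPM in rctrl and 1.88, 2.73 and 6.31 CPM after rCSF1. SOCS2 stood at 4.36, 19.3 and 30.4 CPM in rctrl and 4.34, 9.16 and 14.95 CPM after rCSF1. Skeletal muscle transcripts were present in this rCSF1 group, as given above, and their part in the SOCS values was not tested.

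After rIL34 at 14 dpw 0 members passed the edgeR test, although SOCS3 stood above the highest rctrl library in all 6 libraries. Overlap was not counted over all rows, and the exact permutation p-values below are not adjusted. Among all rows 0.0461% were called higher and 0.00354% lower, and the members' median was 0.18 (all rows, 0.004). SOCS3 stood at 1.53, 1.69 and 1.99 CPM in rctrl. In rIL34-administered wounds its 6 libraries, replicates 1 to 6, held 2.86, 3.55, 2.61, 17.3, 7.74 and 3.70 CPM, with no overlap (1.87 ± 0.49, edgeR adjusted p = 0.14, exact two-sided permutation p = 0.0022). *socs1.S* stood at 1.00, 1.404 and 2.21 CPM in rctrl and at 2.33, 2.45, 2.02, 3.37, 7.67 and 6.10 CPM in replicates 1 to 6 after rIL34, with 1 library inside the rctrl range (1.39 ± 0.38, edgeR adjusted p = 0.16, exact permutation p = 0.0043). *socs3.S* stood at 1.51, 4.62 and 10.4 CPM after rIL34 (1.71 ± 0.48, edgeR adjusted p = 0.17, exact permutation p = 0.0087). These were the 3 members with an unadjusted edgeR p under 0.05. DESeq2 called the same 3 (adjusted p = 0.021 for SOCS3, 0.038 for *socs3.S* and 0.042 for *socs1.S*), as did edgeR on the 18 libraries of that time (0.040, 0.049 and 0.049), and limma-voom called 0. Replicate 4, with SOCS3 at 17.3 CPM, also had the highest neutrophil marker sum of the group (399 CPM, group median 149 CPM), of which 295 CPM came from *mmp8*. T and NK cell markers summed to 38.3 to 92.5 CPM after rIL34 and 25.7 to 44.6 CPM in rctrl, and B and plasma cell markers to 9.94 to 45.8 CPM and 4.85 to 10.3 CPM. Replicates 5 and 6, the libraries with the most *socs1.S*, had the highest T and NK cell sums (92.5 and 74.5 CPM). The part of these markers in the SOCS values was not tested.

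rCSF1 and rIL34 differed in 1 member at 14 dpw. *socs1.S* was lower after rCSF1 (1.04, 1.29 and 1.72 CPM) than after rIL34 (2.02, 2.91 and 7.67 CPM), with no overlap (−1.59 ± 0.38, adjusted p = 0.028). Among all rows 1.08% were called higher and 0.152% lower, and the members' median was −0.23 (all rows, −0.012). The call was lost without rCSF1 replicate 1 (adjusted p = 0.051), 4 (0.055) or 6 (0.12) and without rIL34 replicate 5 (0.13) or 6 (0.089). It was also lost without rCSF1 replicates 1, 2 and 6 (−1.52, adjusted p = 0.58), the libraries with the most muscle transcripts (2461, 3208 and 25910 CPM over the marker list, at most 118 CPM in the other 3).

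Levels of *cish*, *socs1* and *socs3* were mostly lower at 14 than at 7 dpw in each treatment. In rctrl wounds 10 of 16 members were lower at 14 than at 7 dpw and 3 were higher, beside 26.4% lower and 22.9% higher among all rows. The members' median was −1.02 and that of all rows −0.005. *socs1.S* fell the most, from 7.24, 16.4 and 22.0 CPM to 1.00, 1.404 and 2.21 CPM (−3.31 ± 0.40, adjusted p = 3.9e-08). SOCS3 went from a median of 14.7 to 1.69 CPM (−3.07 ± 0.51, adjusted p = 7.7e-06) and *socs3.S* from 9.75 to 1.60 CPM (−2.68 ± 0.49, adjusted p = 3.5e-05). In these 3 rows every library at 14 dpw lay below every library at 7 dpw. The same held for *socs1.L*, both *cish* rows, *socs2.L* and *socs6.L*, and overlap was not counted over all rows.

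The other members of that group followed in rctrl wounds. *socs1.L* went from a median of 9.26 CPM, with 4.51 CPM in the lowest library, to 1.75, 2.69 and 2.87 CPM (−1.71 ± 0.37, adjusted p = 0.00024). *cish.L* fell by 1.59 ± 0.43 and *cish.S* by 1.53 ± 0.39 on the log2 scale (adjusted p = 0.0026 and 0.0013). *socs2.L* went from a median of 24.3 to 10.3 CPM (−1.40 ± 0.28, adjusted p = 0.00012). The SOCS2 row alone among these 8 was not called (0.48 ± 0.46, adjusted p = 0.40), with 4.36 to 30.4 CPM over the 6 rctrl libraries at 14 dpw.

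The rows *socs4* to *socs7* split in rctrl wounds, with 3 higher and 3 lower at 14 dpw. *socs7.S* rose from 11.7, 13.3 and 14.3 CPM to 22.7, 25.3 and 28.2 CPM, with no overlap (0.95 ± 0.14, adjusted p = 1.1e-06). *socs5.S* (0.46 ± 0.16, adjusted p = 0.017) and *socs7.L* (0.36 ± 0.13, adjusted p = 0.019) also rose, and each lost its call without 1 rctrl library of 14 dpw, replicate 3 for *socs5.S* and replicate 1 for *socs7.L* (adjusted p = 0.056 for both). *socs5.L* was not called (0.40 ± 0.19, adjusted p = 0.076) and passed without rctrl replicate 4 of 14 dpw (adjusted p = 0.032). *socs4.S* fell by 1.17 ± 0.26 (adjusted p = 0.00042), *socs6.L* by 0.88 ± 0.16 (adjusted p = 3.1e-05) and *socs6.S* by 0.45 ± 0.14 (adjusted p = 0.0084).

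Immune markers fell over the same interval in rctrl wounds, and their part in the SOCS values was not tested. All 9 neutrophil rows, 15 of 15 tested T and NK cell rows, 8 of 8 B and plasma cell rows and 8 of 9 tested macrophage rows were lower at 14 dpw. The neutrophil sum went from 507 to 837 CPM at 7 dpw to 71.7 to 160 CPM at 14 dpw, and the macrophage sum from 496 to 772 CPM to 75.0 to 161 CPM. Epidermal rows were higher in 18 of 23 cases.

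In rCSF1-administered wounds 12 members were lower at 14 than at 7 dpw and 0 were higher, beside 30.4% lower and 23.9% higher among all rows, with a median of −0.89 (all rows, −0.056). SOCS3 went from 19.3, 34.8 and 214 CPM to 1.66, 2.43 and 3.84 CPM (−4.97 ± 0.54, adjusted p = 1.5e-08). *cish.S* went from a median of 26.2 to 1.77 CPM (−4.06 ± 0.42, adjusted p = 5.8e-09), *cish.L* from 16.1 to 1.75 CPM (−3.73 ± 0.46, adjusted p = 1.1e-07) and *socs3.S* from 27.5 to 2.73 CPM (−4.06 ± 0.51, adjusted p = 1.5e-07). *socs1.S* fell by 3.60 ± 0.41 and *socs1.L* by 2.70 ± 0.38. The groups did not overlap in these 6 rows, nor in *socs6.S*, and overlap was not counted over all rows. Without replicates 2 and 5 of 7 dpw, SOCS3 still stood at −3.41, *cish.S* at −3.20, *cish.L* at −2.59 and *socs3.S* at −2.59, and 10 members remained called lower, beside 23.3% of all rows. Without replicate 2 alone, SOCS3 stood at −4.30 and *socs3.S* at −3.42. The remaining calls were *socs2.L* (−1.07), *socs4.L* (−0.94), *socs6.L* (−0.62), *socs6.S* (−0.53), *socs5.L* (−0.47, adjusted p = 0.034) and *socs7.L* (−0.33, adjusted p = 0.028). The last 2 lost their calls without replicates 2 and 5 (−0.046 and −0.18). *socs5.L* also lost its call without rCSF1 replicate 2 or 5 of 7 dpw or 2, 5 or 6 of 14 dpw (adjusted p up to 0.20), and *socs7.L* without replicate 1, 2, 3 or 5 of 7 dpw or 6 of 14 dpw (up to 0.10). Without replicates 1, 2 and 6 of 14 dpw, the muscle-rich libraries, *socs6.L* (−0.425, adjusted p = 0.057), *socs5.L* (adjusted p = 0.24) and *socs7.L* (0.15) were not called. Over this interval after rCSF1, 8 of 9 neutrophil, 6 of 9 tested macrophage and 7 of 15 tested T and NK cell rows were lower, and 14 of 14 tested muscle rows were higher, with sums of 9.93 to 24.4 CPM at 7 dpw. Their part in the SOCS values was not tested.

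In rIL34-administered wounds 6 members were lower at 14 dpw and 0 were higher, beside 27.1% lower and 20.4% higher among all rows, with a median of −0.41 (all rows, −0.048). They were *cish.L* (−1.41 ± 0.43, adjusted p = 0.0068), SOCS3 (−1.37 ± 0.47, adjusted p = 0.017), *socs3.S* (−1.33 ± 0.46, adjusted p = 0.018), *cish.S* (−1.31 ± 0.38, adjusted p = 0.0050), *socs1.S* (−1.17 ± 0.37, adjusted p = 0.0097) and *socs4.L* (−0.54 ± 0.19, adjusted p = 0.020). Leaving out rIL34 replicate 4 of 14 dpw moved SOCS3 to −1.98. *socs3.S* lost its call without replicate 4 of 7 dpw (adjusted p = 0.051), and *socs4.L* without replicate 3 of 7 dpw (0.067) or 2 of 14 dpw (0.054). *socs1.L* passed without replicate 5 of 14 dpw (−0.96, adjusted p = 0.030), and *socs5.S* without replicate 1 (0.040) or 2 (0.049) of 7 dpw. After rIL34, 6 of 9 neutrophil and 7 of 9 tested macrophage rows were lower at 14 dpw, and 3 of 8 B and plasma cell rows were higher. Their part was not tested.

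**Figure D4:**
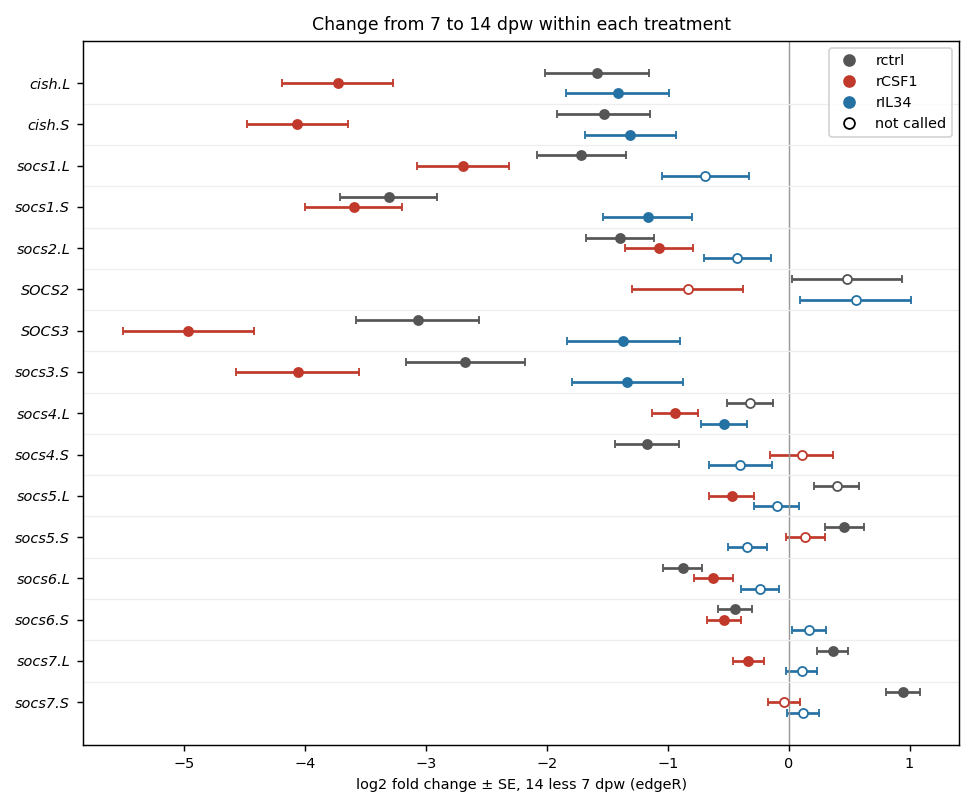
Log2 fold change ± SE (edgeR, n = 6 against 6) from 7 to 14 dpw for each of the 16 rows in rctrl, rCSF1 and rIL34 wounds; filled points have an adjusted p under 0.05. *cish*, *socs1* and *socs3* rows lie left of 0 in each treatment, while *socs7.S* is called higher in rctrl (0.95) and stands at −0.039 after rCSF1 and 0.12 after rIL34.

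Whether an effect of a cytokine differed between the times was tested as an interaction (the effect at 14 less that at 7 dpw). For rCSF1, 5 members were called lower and 1 higher, beside 10.5% lower and 5.51% higher among all rows, with a median of −0.78 (all rows, 0.027). The effect was smaller at 14 dpw for *cish.S* (−2.53 ± 0.54, adjusted p = 0.0047), *cish.L* (−2.15 ± 0.60, adjusted p = 0.016), *socs7.S* (−0.98 ± 0.19, adjusted p = 0.0035), *socs7.L* (−0.70 ± 0.18, adjusted p = 0.012) and *socs5.L* (−0.87 ± 0.27, adjusted p = 0.025). For *socs4.S* the effect went from −0.97 at 7 dpw to 0.31 at 14 dpw, where it was not called (interaction 1.28 ± 0.37, adjusted p = 0.020). SOCS3 stood at −1.90 ± 0.68 (adjusted p = 0.051) and *socs3.S* at −1.39 ± 0.66 (adjusted p = 0.14). Without rCSF1 replicates 2 and 5 of 7 dpw, *socs7.S* alone was called (−0.68, adjusted p = 0.027), beside 0.854% lower among all rows, and SOCS3 stood at −0.35. Without rCSF1 replicates 1, 2 and 6 of 14 dpw 0 members were called by edgeR (7 at an unadjusted p under 0.05), and the 6 rows had adjusted p from 0.050 (*socs7.S*) to 0.13 (*socs5.L*). Single libraries decided 4 rows. *cish.L* was not called without rCSF1 replicate 2 (adjusted p = 0.050) or 5 (0.054) of 7 dpw, and *socs5.L* without either of these (0.090 and 0.068) or rctrl replicate 3 of 14 dpw (0.051). SOCS3 passed without rCSF1 replicate 1, 3, 4 or 6 of 7 dpw or 4 of 14 dpw (0.021 to 0.042), and *socs4.L* without replicate 1 of 7 dpw (0.044). In the rCSF1 interaction 18 of 23 epidermal rows were called lower and 0 higher. Called higher were 14 of 14 tested muscle rows and 5 of 15 tested T and NK cell rows. The part of these markers in the SOCS values was not tested.

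For rIL34, 3 members were called higher and 2 lower, beside 7.55% higher and 10.9% lower among all rows, with a median of 0.42 (all rows, 0.04). *socs1.S* differed most between the times (2.14 ± 0.52, adjusted p = 0.0044), from −0.76 against rctrl at 7 dpw to 1.39 at 14 dpw. The effect against rctrl was also higher at 14 than at 7 dpw for *socs6.S* (0.61 ± 0.20, adjusted p = 0.027) and *socs6.L* (0.64 ± 0.23, adjusted p = 0.044). For *socs7.S* (−0.83 ± 0.19, adjusted p = 0.0031) and *socs5.S* (−0.81 ± 0.23, adjusted p = 0.012) the effect was lower at 14 dpw. SOCS3 (1.70) and *socs3.S* (1.34) were not called. SOCS3 was called by DESeq2 (adjusted p = 0.0395), and by edgeR with the filter at 5 CPM (0.041). With only the groups compared, edgeR called SOCS3 (0.019) and *socs3.S* (0.031). The call for *socs6.L* was lost in 16 of 24 fits with a library left out (adjusted p up to 0.084), and that of *socs6.S* without rctrl replicate 4 (0.050) or rIL34 replicate 2 (0.058) of 14 dpw. *socs2.L* passed without rIL34 replicate 1 (0.040) or 3 (0.047) of 7 dpw. T and NK cell rows moved the same way in this interaction as *socs1.S*, with 10 of 15 tested rows called higher, as were 7 of 8 B and plasma cell rows. Epidermal rows were called lower in 16 of 23 cases and higher in 0. The part of these markers in the SOCS values was not tested.

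Lists of genes for 7 steps along the pathway were read beside the family, from the cytokines to the genes that STATs switch on. In the 7 dpw comparisons the list counts are to be read against the shares of all rows given above. These were 20.4% (higher) and 14.1% (lower) for rCSF1, and 15.8% and 11.2% for rIL34. For rCSF1 counts without replicates 2 and 5 the shares were 7.18% (higher) and 5.67% (lower). From 7 to 14 dpw in rctrl they were 22.9% (higher) and 26.4% (lower). Of 24 rows for ligands that use JAK-coupled receptors, 14 passed the filter. In rCSF1-administered wounds at 7 dpw 3 were higher and 0 lower, with a median of −0.18 over the 14 (all rows, −0.027). They were *csf3.L*, which encodes the neutrophil growth factor G-CSF (31.0 ± 44.95 CPM against 0.560 ± 0.556 in rctrl, SD, n = 6, log2 difference 5.79, adjusted p = 0.00016), *lif.L*, an IL6-family cytokine (2.22, adjusted p = 0.0038), and *il11.S* (1.82, adjusted p = 0.016, and 1.37 with adjusted p = 0.15 without replicates 2 and 5). Without replicates 2 and 5, 0 of the 14 were called by edgeR (3 at an unadjusted p under 0.05), and *csf3.L* then stood at 2.08 (adjusted p = 0.11) and *lif.L* at 0.23. After rIL34 at 7 dpw 0 ligands were higher and 2 lower. From 7 to 14 dpw in rctrl 7 of 14 were lower, led by *lif.L* (−3.88), *il11.S* (−3.54) and *lep.L*, the leptin gene (−2.43).

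Receptor rows numbered 45 after the filter. In rCSF1-administered wounds at 7 dpw 11 were higher and 2 lower (4 and 1 without replicates 2 and 5), with a list median of −0.014. *il10rb.L*, the shared chain of the IL10 and IL22 receptors, was higher by 3.01 ± 0.43 (adjusted p = 1.5e-05) and remained so without those libraries (1.78, adjusted p = 0.00081). *csf2rb.L*, the common beta chain of the GM-CSF receptor, was higher by 1.76 (adjusted p = 0.021, and 1.96 without replicates 2 and 5), and *il13ra2.S* by 2.09 (0.12 without replicates 2 and 5). After rIL34, 3 receptor rows were higher and 2 lower, with *il10rb.L* at 1.30 (adjusted p = 0.016), *prlr.S*, the prolactin receptor, at 1.11 and *il13ra2.L* at −1.47. In rctrl wounds 28 receptor rows were lower at 14 than at 7 dpw and 7 were higher.

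Of 6 JAK rows, 2 were higher after rCSF1 at 7 dpw, *jak2.L* (0.79, adjusted p = 0.0049) and *tyk2.L* (0.68, adjusted p = 0.00038), and 1 was higher after rIL34, *tyk2.L* (0.46, adjusted p = 0.012). With these 2 libraries (replicates 2 and 5) left out, *jak2.L* stood at 0.31 (adjusted p = 0.29) and *tyk2.L* at 0.37 (adjusted p = 0.035), and the list had 1 row higher and 1 lower. *jak3.L*, the kinase of receptors with the common gamma chain, was higher at 14 dpw after rCSF1 (0.99, adjusted p = 0.0037) and after rIL34 (1.12, adjusted p = 0.012). Of the 10 STAT rows, 5 were lower and 2 higher after rCSF1 at 7 dpw (median −0.28, and 4 lower and 0 higher without replicates 2 and 5), and 4 were lower and 2 higher after rIL34 (median 0.054). *stat4.L*, which carries IL12 signals, was lower by 0.85 ± 0.26 after rCSF1 (adjusted p = 0.0099, and −0.67 with adjusted p = 0.11 without replicates 2 and 5), and the value after rIL34 was −1.25 (adjusted p = 0.00054).

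The 8 rows of the ubiquitin ligase that SOCS boxes recruit had 2 higher and 1 lower after rCSF1 at 7 dpw (median 0.042, and 1 higher and 0 lower without replicates 2 and 5), and 2 higher and 3 lower after rIL34 (median −0.24). *elob.L*, elongin B, was higher after both (0.83 and 0.68, adjusted p = 0.00029 and 0.0026). *rnf7.L*, the RING subunit paired with cullin 5, was lower after both (−0.61 and −0.54, adjusted p = 0.020 and 0.0497). When replicates 2 and 5 were left out, *elob.L* stood at 0.56 after rCSF1 (adjusted p = 0.023), and *rnf7.L* at −0.40 was not called (adjusted p = 0.20). Among 23 rows of other inhibitors of the pathway, 8 were higher and 2 lower after rCSF1 (median 0.23, and 3 higher and 1 lower without replicates 2 and 5), among them *ptpn1.S*, a tyrosine phosphatase that acts on JAK2 and TYK2 (0.95, adjusted p = 5.3e-05, and 0.57 without those libraries), and 5 were higher and 2 lower after rIL34.

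STAT-induced genes outside the family had 14 of 33 tested rows higher and 0 lower after rCSF1 at 7 dpw (6 higher and 1 lower without replicates 2 and 5), with a median of 0.70. After rIL34 14 were higher and 2 lower, with a median of 0.37 (all rows, −0.01). The leading rows differed. After rCSF1 they were *pim3.S* (3.06, and 0.84 without replicates 2 and 5), *cebpb.L* (2.79, and 1.61) and *cebpd.S* (2.55, and 1.403), genes of a kinase and of 2 transcription factors of the acute inflammatory response. After rIL34 they were *fos.S* (2.75), *fos.L* (2.55) and *cebpb.S* (1.63). At 14 dpw *fos.L* and *fos.S* were the 2 rows of the list called after rIL34 (3.38 and 3.20, adjusted p = 0.012 and 0.014). From 7 to 14 dpw in rctrl 16 rows were lower and 3 higher, led by *batf.S* (−3.56).

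The balance between the 2 rows of a gene was compared as the log2 ratio of CPM plus 0.5, with exact two-sided permutation tests. Of 72 tests, 11 had an adjusted p under 0.05, and 7 of these 11 set 14 against 7 dpw. In rctrl wounds the *socs1.L* over *socs1.S* ratio went from −0.76 ± 0.32 at 7 dpw to 0.61 ± 0.45 at 14 dpw (SD, n = 6, difference 1.37, exact permutation p = 0.0022, adjusted 0.022), and *socs1.S* fell further than *socs1.L*. It also went up in rIL34 wounds, by 0.46 (adjusted p = 0.022, exact permutation). The *socs2.L* over SOCS2 ratio went down in rctrl wounds from 0.90 ± 0.25 to −0.71 ± 0.66 (exact permutation, adjusted p = 0.022) and in rIL34 wounds by 0.99 (exact permutation, adjusted p = 0.028). The SOCS3 over *socs3.S* ratio fell by 0.39 in rctrl and by 0.79 in rCSF1 wounds, and the *socs7* ratio by 0.57 in rctrl wounds.

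The other 4 calls set treatments against each other. At 14 dpw the *cish.L* over *cish.S* ratio was lower after rIL34 (−0.54 ± 0.12) than after rctrl (−0.18 ± 0.16) and after rCSF1 (−0.04 ± 0.17), each with adjusted p = 0.022 by exact permutation. The *socs4* ratio at 7 dpw was 2.05 ± 0.96 after rCSF1 and 0.55 ± 0.68 in rctrl, a difference of 1.504 that missed the threshold (exact permutation p = 0.011, adjusted 0.060). The last 2 of these calls were *socs5* for rCSF1 against rIL34 at 14 dpw (−0.43) and *socs7* for rIL34 against rctrl at 7 dpw (−0.33).

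**Figure D5:**
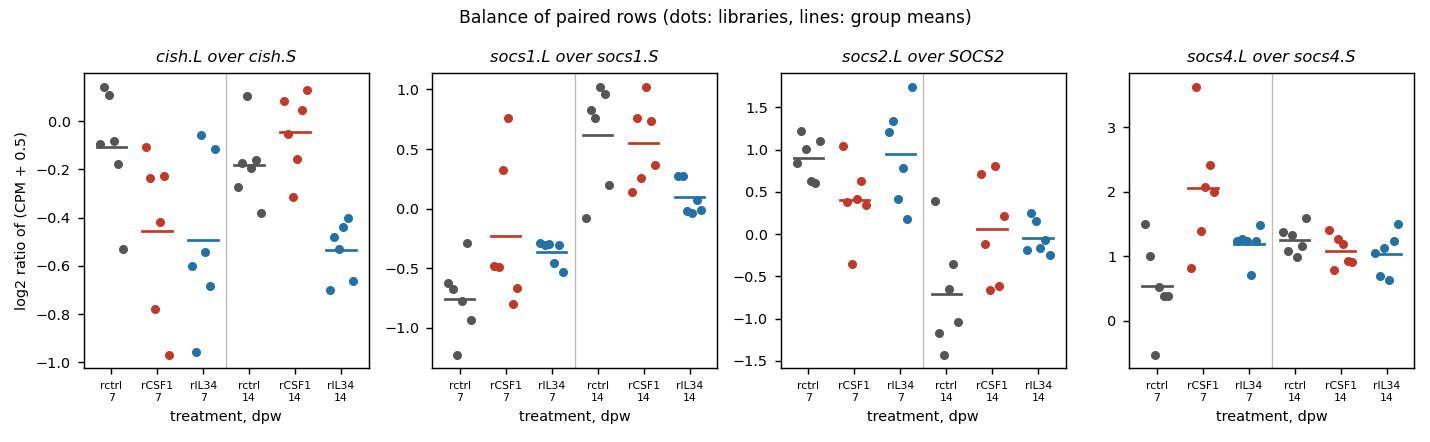
Log2 ratio of CPM plus 0.5 for 4 pairs of rows in the 36 libraries, by treatment and dpw; points are libraries and lines are group means. In rctrl wounds the *socs1* ratio goes from a mean of −0.76 at 7 dpw to 0.61 at 14 dpw and the *socs2* ratio from 0.90 to −0.71.

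Levels of the members were also compared across the 36 libraries, which share treatments, times and tissue makeup, so that the correlations describe these libraries and carry no p-value. Among pairs of copies, those of *cish* were the most alike (Pearson r = 0.97 of log2 CPM, 0.93 for deviations from the group means), followed by SOCS3 with *socs3.S* (0.97 and 0.89) and *socs1.L* with *socs1.S* (0.92 and 0.81). Across genes, *cish.S* and *cish.L* each stood at 0.93 with SOCS3 (0.72 and 0.77 within groups). Outside the family, the rows most like SOCS3 were *adam33.L* (0.97, 0.89 within groups), *il6st.S*, which encodes gp130 (0.97 and 0.86), and *lif.L* (0.97 and 0.89). Without rCSF1 replicates 2 and 5 these 3 stood at 0.96, 0.95 and 0.95 over 34 libraries. *il6st.S* was also among the 3 rows most like *socs3.S* (0.95), *cish.L* (0.94) and *cish.S* (0.94). *il1b.L*, the interleukin-1 beta gene, led for *cish.L* (0.95 and 0.89).

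The rows most like *socs1* differed from these. For *socs1.L* they were *irf1.S*, an interferon response transcription factor (0.93, 0.80 within groups), *ptpn2.L* and *tifa.L* (both 0.90). For *socs1.S* they were *gbp7.S*, of the guanylate-binding protein family (0.93, 0.64 within groups), *arhgap4.L* and *nampt.L* (both 0.93). *socs7.S* went with *tbc1d14.L* and *prkd1.S* (both 0.93) and *klc4.L* (0.92), and *socs4.L* with *abhd4.L* (0.92), *clpx.L* (0.91) and *ugcg.S* (0.91). Likeness was weaker for *socs2.L* (*gnao1.S*, 0.85, *fundc1.L*, 0.84, and *Tlr13*, 0.83), *socs6.L* (*rbmx.S*, 0.88) and *socs6.S* (*znf644.S*, 0.83). It was lower again for *socs5.S* (*xpr1.S*, 0.80), *socs4.S* (*riok2.S*, 0.79), *socs5.L* (*wwtr1.L*, 0.79) and *socs7.L* (*rnf19a.S*, 0.76). Outside the family, the SOCS2 row had no close partner, with 0.53 at most (*snx25.L*). Its r with *socs2.L* was 0.54, and 0.81 for deviations from the group means.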

How the data were processed

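RNA was sequenced from 36 wound libraries, 6 in each of 6 groups, which were assigned from sample titles and treatment labels. The deposited counts are whole numbers of read pairs per gene with no normalization: the authors aligned reads with minimap2 2.29 to Xenopus_laevis_v10.1, used SAMtools 1.16.1 for sorting and featureCounts 2.1.1 to count read pairs over the exons of each gene, as the study's methods and the submitters' processing notes state. No strand option is named. The authors used DESeq2 through iDEP. Of 42674 rows, 417 name no gene (0.628% to 2.08% of a library's counts) and were left out.

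The quasi-likelihood test of edgeR 4.0.16 (glmQLFit and glmQLFTest, R 4.3.3) was run on TMM-scaled counts in 1 model of 6 groups over all 36 libraries. Rows were kept at 0.5 CPM in at least 10 libraries, with Benjamini-Hochberg adjustment over the 28225 rows kept. The script was first tested on simulated data. Copy ratios used log2 of CPM plus 0.5 and exact permutation tests, adjusted over 72 tests. Exact permutation p-values of member values were not adjusted. The members, the gene lists and the alternatives were chosen with earlier results of these data known. Named pathway genes are up to 3 per list, past the test with the largest change among rows with a mean of at least 1 CPM. Likeness is Pearson r, and rows under a mean of 1 CPM or named by an automatic symbol were left out of it. Sequences were not used here, and 1 gene of the pathway lists is not reported here.

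The alternatives were DESeq2 1.42.0, limma-voom 3.58.1 with sample quality weights, RLE size factors, no filter or one at 5 CPM, a fit to the groups compared or to the 18 libraries of that time, the replicate number as a block, L and S counts added, pseudocounts of 0.1 and 2 or CPM without TMM for the ratios, and libraries left out.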

Additional observations from a re-analysis of the deposited data

Results flagged for a closer look

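Of 96 groups of 6 libraries, 8 held a library far from the other 5 by Dixon's test on the log2 scale of CPM plus 0.5 at its 95% critical value, which chance alone passes in about 1 in 20 groups. The test cannot see 2 libraries that stand apart together, as rCSF1 replicates 2 and 5 at 7 dpw do. Low values stood out for *socs1.L* in rctrl replicate 1 at 7 dpw (4.51 CPM) and, in another library, rctrl replicate 1 at 14 dpw (1.75 CPM), and for *socs2.L* in rctrl replicate 6 at 7 dpw (16.05 CPM). At 14 dpw low values stood out for *socs4.L* in rCSF1 replicate 6 (3.525 CPM) and rIL34 replicate 2 (3.88 CPM) and for *socs6.L* in rIL34 replicate 4 (3.05 CPM). High values stood out for *socs4.S* in rIL34 replicate 4 at 14 dpw (3.405 CPM) and *socs7.L* in rctrl replicate 5 at 7 dpw (12.6 CPM).

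The effect of a cytokine differed between 7 and 14 dpw, by the interaction test in edgeR, in 11 cases. For rCSF1 the effect at 14 less that at 7 dpw was −2.15 for *cish.L*, −2.53 for *cish.S*, −0.87 for *socs5.L*, −0.70 for *socs7.L*, −0.98 for *socs7.S* and 1.28 for *socs4.S*. For rIL34 it was 2.14 for *socs1.S*, 0.64 for *socs6.L*, 0.61 for *socs6.S*, −0.81 for *socs5.S* and −0.83 for *socs7.S*. The low *socs4.L* value of rCSF1 replicate 6 at 14 dpw came from the library with the most muscle transcripts (25910 CPM over the marker list).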

How the results depend on the processing

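Most member values kept their side of the threshold: of 2496 values with 1 library left out, 2391 did, 81 lost and 24 gained a call, and of 1765 values under other settings 1630 did, 89 lost and 43 gained a call. The other settings include exact permutation tests of member values, judged at an unadjusted p under 0.05. By these tests 128 values kept their side, 2 lost and 14 gained it, which is not a call at an adjusted p. The sign of a value called in either fit turned in 0 values with 1 library left out and in 3 under other settings. Of these 3, *socs4.S* from 7 to 14 dpw after rCSF1 (0.107) was called only with L and S counts added. Some values that were not called also crossed 0. Counts of members called that moved by more than 1.5 times were as follows. Without rCSF1 replicates 2 and 5 at 7 dpw, the count went from 9 to 3 for rCSF1 against rctrl, from 6 to 0 for rCSF1 against rIL34 at 7 dpw and from 6 to 1 for the rCSF1 interaction. Without rCSF1 replicates 1, 2 and 6 at 14 dpw it went from 6 to 0 for that interaction and from 1 to 0 for rCSF1 against rIL34 at 14 dpw. With limma-voom it was 3 for rCSF1 against rIL34 at 7 dpw and 0 at 14 dpw, and with only the groups compared it was 0 in both. With the 18 libraries of that time it was 3 for rIL34 against rctrl at 7 dpw and 3 at 14 dpw. The main edgeR fit of all 36 libraries gave 7 and 0 there, and DESeq2 also called 3 at 14 dpw. At an unadjusted p under 0.05 these counts of 0 were 3 to 8, except 1 for rCSF1 against rIL34 at 14 dpw without replicates 1, 2 and 6. The cause was not tested, and some of these fits had fewer samples. Leaving out 1 library gave 8 to 10 calls for rCSF1 against rctrl at 7 dpw, 3 to 8 for rIL34 against rctrl, 5 to 8 between the cytokines, 0 to 0 for each cytokine against rctrl and 0 to 1 between them at 14 dpw, 12 to 14, 10 to 12 and 5 to 7 from 7 to 14 dpw in rctrl, rCSF1 and rIL34, and 4 to 8 and 3 to 6 for the rCSF1 and rIL34 interactions. Of the 72 copy ratio tests 10 to 16 passed with 1 library left out, 11 with a pseudocount of 0.1, 13 with 2 and 11 without TMM. Adding L and S counts, by its construction, reversed *socs4.S* toward *socs4.L*: 0.23 for rCSF1 against rctrl at 7 dpw, −0.65 from 7 to 14 dpw after rCSF1 and −0.056 for the interaction.

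Correlations of same-numbered deviations between groups ran from −0.26 to 0.37. Samples with different numbers were not compared, so this range cannot show whether replicate numbers pair the samples. In each group the replicate numbers follow the library names sorted as text, so a shared number names no pair or batch. With the replicate number as a block, 4 of 176 member tests lost their call: *socs5.L* for rIL34 against rctrl at 7 dpw (adjusted p = 0.050) and from 7 to 14 dpw after rCSF1 (0.051), *socs1.L* between the cytokines at 7 dpw (0.057) and *socs1.S* between them at 14 dpw (0.063), where the count went to 0. Low counts limit *socs4.S*, the *cish* rows and *socs1* and *socs3* rows at 14 dpw, whose group medians there were 1.29 to 4.62 CPM.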
